A study of Mus musculus with 106 samples.

Results

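The genes described here are 34 genes of G2, the mitotic spindle and mitotic exit, taken as a list of names from the field and kept where the array has a probe set assigned to that symbol alone. All 34 of 34 were measured, out of 18193 genes with such a probe set, and they were followed in 106 single mouse cells in 11 groups. For each cell, the mean log2 signal of the 34 genes is called the G2 and mitosis score. Signals below 70.2 (6.13 in log2), a floor set from probe sets of smell and taste receptors and hair keratin proteins, taken as silent in these cells, were raised to that floor first.

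The series profiled cells of the lineage that leads from posterior epiblast to the founders of eggs and sperm, the primordial germ cells (PGCs), with their mesodermal neighbours and with cells lacking Blimp1 (Prdm1), a transcriptional repressor required for PGC formation. Embryos were of the C57BL/6 strain, fragments were dissociated with trypsin and EDTA, single cells were picked at random, and the PCR-amplified cDNA of each cell was put on 1 array. Groups were set by stage and by transcripts found in the cDNA of the cell, so they hold only cells in which those transcripts were detected.

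Of the wild-type groups, 8 posterior epiblast cells came from the pre-streak (PS) stage and were positive for Oct4 and T. PGC precursors, positive for Blimp1 and Oct4, numbered 7 from Early/Mid-Streak embryos (E/MS) and 17 from Late-Streak/0-Bud embryos (LS/0B). PGCs, positive for Blimp1 and stella (Dppa3), numbered 8 at the Early/Mid-bud (E/MB) stage, 8 at the Early head fold (EHF) stage and 8 at E8.25. Posterior mesoderm at E/MB, taken where the allantois starts, gave 10 cells, negative for Blimp1 and positive for Oct4 and Hoxb1. Cells positive for Blimp1, Oct4 and Hoxb1, called Blimp1+ Hoxb1+ cells below, numbered 4 at E/MB and 4 at EHF, and for the latter the sample titles name E/MB while the descriptions and sources name EHF. Blimp1 (-/-) cells, chosen by the transcript of the null allele and by Oct4, numbered 20 at LS/0B and 12 at E/MB. The null transcript is picked up by the primers used for the intact one, so Prdm1 signal does not check the genotype.

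G2 is the gap between the copying of DNA and its division, and cells leave it when CDK1 bound to an A- or B-type cyclin is switched on. Polo-like and Aurora kinases then build the spindle, the spindle checkpoint holds the cell until all kinetochores are attached, and the anaphase-promoting complex with Cdc20 destroys securin and the cyclins so that chromatids part and the cell divides. Most of these transcripts are made late in the cycle and fade after division, so in a growing population single cells differ in them. Early epiblast and gastrulating cells are known for very short cycles, and nascent PGCs are known for slowing them and spending time in G2.

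The labels name no embryo, litter or pool, so each group counts as 1 sample, no test was made, and each difference is given with the SD over cells. Group means of the score are given a direction when they differ by at least 0.5 log2 units, and a member is counted as higher or lower when group means differ by at least 1 log2 unit. Between 5511 and 8311 genes were detected per cell, and group means lay between 6718.8 and 7607.85. The 10 mesoderm arrays stood apart, with hybridisation controls at 10.77 log2 units or more against at most 10.75 on the other arrays. Xist, which marks female cells, was detected in 8 of 8 PS cells, 8 of 17 LS/0B precursors, 5 of 8 EHF PGCs and 1 cell in each Blimp1+ Hoxb1+ group, and in 0 cells of the other groups. At least 1 Y-linked gene was detected in 0 PS cells, 6 of 7 E/MS and 8 of 17 LS/0B precursors. In E/MB, EHF and E8.25 PGCs it was 8, 3 and 7 of 8, and in mesoderm 9 of 10. In each Blimp1+ Hoxb1+ group it was 2 of 4, and in LS/0B and E/MB knockout cells 20 of 20 and 10 of 12. Of all cells 0 had both, and those with neither are counted below as without Xist. Markers were read without the transcripts by which cells were chosen (Prdm1, Dppa3 and Hoxb1). The 6 PGC markers left had a median score of 11.21, 11.23 and 10.90 in the E/MB, EHF and E8.25 PGCs and 7.56 in mesoderm, while the 7 posterior mesoderm markers had 9.63 in mesoderm and 6.46, 6.23 and 6.34 in those PGC groups. In the E/MB Blimp1+ Hoxb1+ cells the PGC markers stood at 8.64 and the mesoderm markers at 9.40. Visceral endoderm markers (9 genes) had group medians between 6.20 and 6.66, and blood and endothelium markers (10 genes) between 6.14 and 6.63, close to the floor.

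Many G2 and mitosis promoters carry a cell cycle homology region (CHR, TTTGAA), bound by the DREAM and MuvB complexes, next to CCAAT boxes bound by NF-Y. RefSeq promoter windows (GRCm38.p6, 250 bases before to 50 after the start) held 27 of the 34 members, the others being Ccna2, Cdc25c, Wee1, Aurkb, Incenp, Tpx2 and Kif20a. On either strand, TTTGAA was present in 20 of these 27 genes (74.1%) against 20.2% of all 27025 genes in the table, and CCAAT in 22 (81.5%) against 41.1%. Both motifs were present in 18 (66.7%) against 7.97%. A match in a window of this length is a description of letters and not a bound site. The promoters below belong to the members that varied most between cells of a group among those with TTTGAA wholly upstream of the first listed start. Whether the motifs bear on how these genes vary from cell to cell was not tested. Each run is the last 150 bases before the start, written 5' to 3' on the strand of the gene. Capitals mark the motifs TTTGAA and CCAAT, or TTCAAA and ATTGG where they lie on the other strand. Kif11 lies at chr19:37376232-37376381 (+), Ccnf at chr17:24251410-24251559 (-), Ect2 at chr3:27153879-27154028 (-), Ube2c at chr2:164769779-164769928 (+) and Kif2c at chr4:117178773-117178922 (-).
Kif11: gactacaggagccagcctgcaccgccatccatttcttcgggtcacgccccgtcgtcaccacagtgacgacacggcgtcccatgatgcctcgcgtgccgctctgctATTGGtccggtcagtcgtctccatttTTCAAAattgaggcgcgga
Ccnf: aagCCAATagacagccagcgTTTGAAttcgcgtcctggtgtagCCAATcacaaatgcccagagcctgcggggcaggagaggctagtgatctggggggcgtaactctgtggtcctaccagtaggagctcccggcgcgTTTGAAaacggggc
Ect2: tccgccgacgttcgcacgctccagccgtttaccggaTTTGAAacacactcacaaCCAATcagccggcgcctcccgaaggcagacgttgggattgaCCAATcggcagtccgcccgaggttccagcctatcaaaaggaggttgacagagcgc
Ube2c: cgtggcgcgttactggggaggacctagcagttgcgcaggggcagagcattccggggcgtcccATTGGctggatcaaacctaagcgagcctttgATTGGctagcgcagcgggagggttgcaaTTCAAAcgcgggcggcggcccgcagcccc
Kif2c: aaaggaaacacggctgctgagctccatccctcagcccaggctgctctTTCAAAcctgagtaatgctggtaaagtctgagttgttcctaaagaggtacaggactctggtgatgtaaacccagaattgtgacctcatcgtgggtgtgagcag
Of the genes shown, Kif11, Ccnf, Ect2 and Ube2c had both motifs within these 150 bases and Kif2c had TTTGAA alone. In Kif11 and Ube2c the single TTTGAA lay on the other strand, ending 14 and 24 bases before the start.

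The G2 and mitosis score had its highest group means in EHF and E8.25 PGCs and its lowest in Blimp1+ Hoxb1+ cells, mesoderm and PS epiblast, with wide overlap of single cells. E/MB PGCs, E/MS precursors and both knockout groups lay close together in between. It averaged 9.67 ± 0.30 (SD, n = 8 cells) in PS epiblast, 10.15 ± 0.37 (n = 7) in E/MS precursors, 9.96 ± 0.60 (n = 17) in LS/0B precursors, 10.18 ± 0.66 (n = 8) in E/MB PGCs, 10.50 ± 0.42 (n = 8) in EHF PGCs and 10.39 ± 0.73 (n = 8) in E8.25 PGCs. It was 9.59 ± 0.66 (n = 10) in mesoderm, 9.51 ± 1.11 (n = 4) and 9.24 ± 0.78 (n = 4) in the E/MB and EHF Blimp1+ Hoxb1+ cells, and 10.10 ± 0.55 (n = 20) and 10.27 ± 0.46 (n = 12) in LS/0B and E/MB knockout cells. In order of the means, each group differed from the next by less than the SD of either. A mean over cells does not tell fewer cells in G2 or mitosis from less transcript per such cell. Cells of 1 group spread over more than the group means did: E8.25 PGCs ran from 8.93 to 11.01 with a median of 10.76, and the E/MB Blimp1+ Hoxb1+ cells stood at 8.11, 9.16, 10.23 and 10.54. Differences between groups held 24.2% of the variance of the score over cells. For single members that share had a median of 21.5%, from 7.14% for Tpx2, an activator of Aurora A, to 47.6% for Ccnb2, beside a median of 19.7% over 7250 broadly detected genes, those found in 50% of cells or more.

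**Figure D1:**
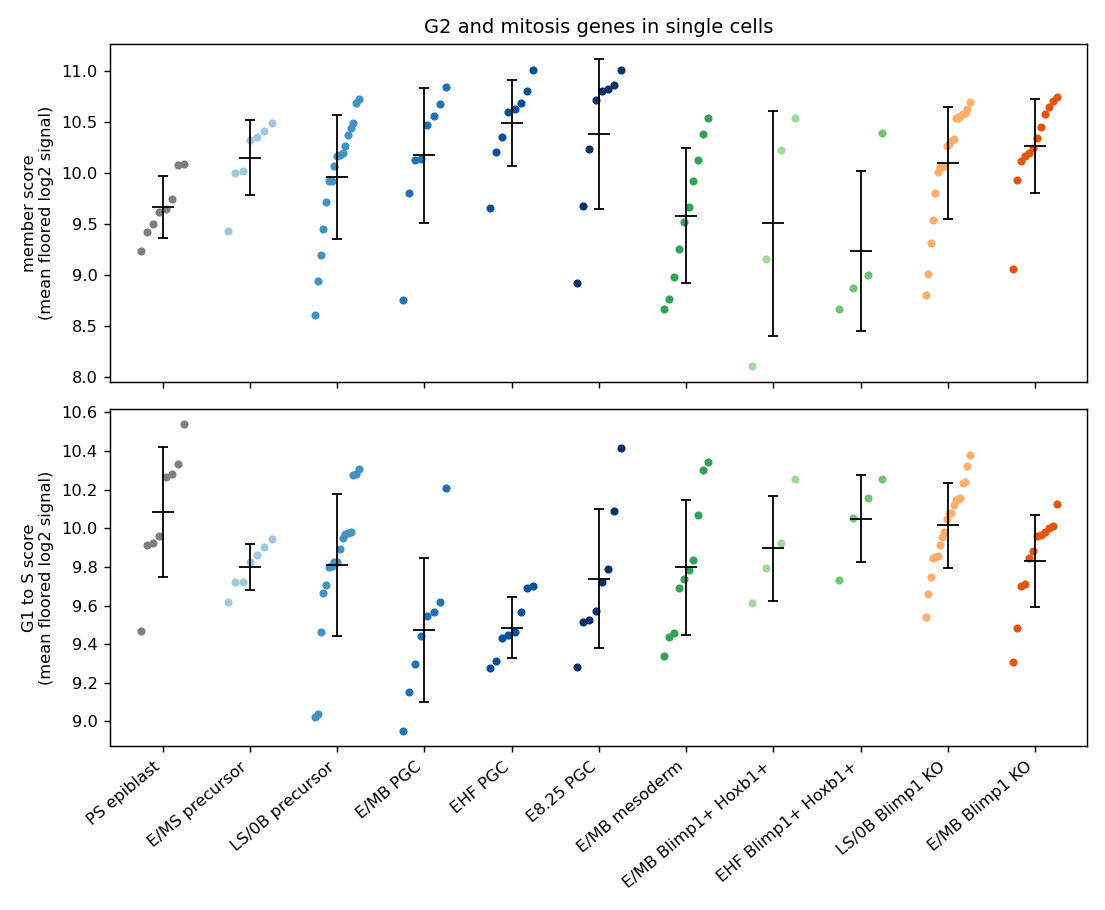
Top, the G2 and mitosis score (mean floored log2 signal of 34 genes) of every cell in each of the 11 groups; bottom, the same for 37 genes of G1 to S and replication. Points are cells, ordered by value within a group, bars are the mean and SD over cells; low outlying cells at the top, such as 8.76 in E/MB PGCs and 8.93 in E8.25 PGCs, are the highest of their groups at the bottom (10.21 and 10.41).

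Nearly every cell carried most of the 34 transcripts. Detection in a cell required a signal above the 95th percentile that the background probe sets reached on the same array. By that limit 91 of 106 cells had at least 30 members, 11 members were detected in every cell, and the median member in 102.5 cells. Group medians were 31 members in PS epiblast, 33 in E/MS precursors, 32 in LS/0B precursors, 33, 33 and 33.5 in E/MB, EHF and E8.25 PGCs, 31.5 in mesoderm and in E/MB Blimp1+ Hoxb1+ cells, 28 in EHF Blimp1+ Hoxb1+ cells and 33 in each knockout group. Cdc25b, one of the phosphatases that switch CDK1 on, was the member found in the fewest cells, 23 of 106, and Kif11, the motor that pushes spindle poles apart, was found in 78. The cells with the fewest members were E/MB Blimp1+ Hoxb1+ cell 1 with 20, LS/0B precursor 4 with 22 and E8.25 PGC 2 with 24. Of the 3, LS/0B precursor 4 also had the fewest detected genes of all cells (5511), while the others had 6970, the fewest of its 4-cell group, and 6857, within the range of its group (6496 to 7671).

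**Figure D2:**
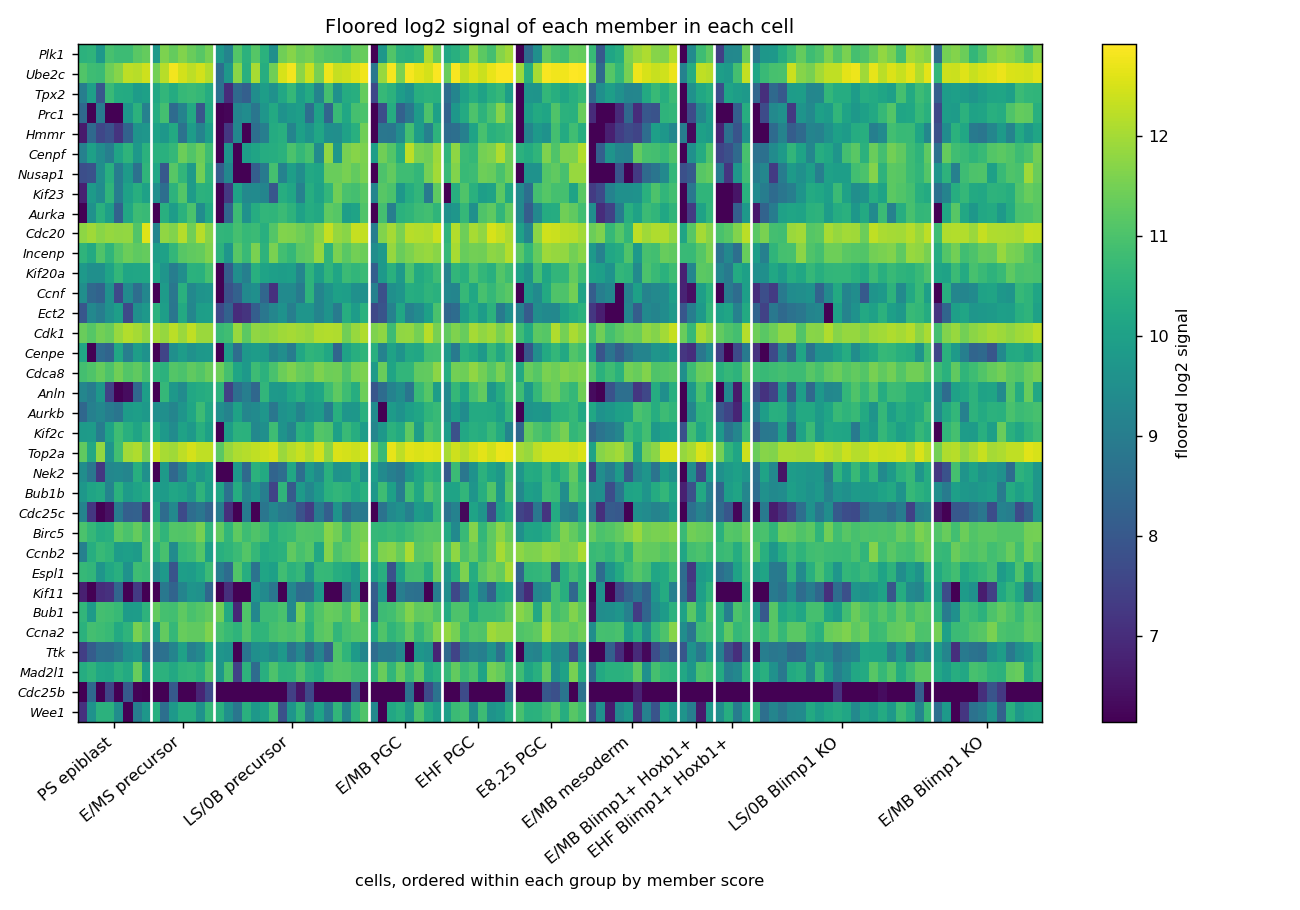
Floored log2 signal (colour) of the 34 members (rows) in 106 cells (columns), which are ordered within each group by the G2 and mitosis score; rows are ordered by the correlation of a member with the other members within groups. Rows near the top, such as Plk1 and Ube2c, darken together in the low cells at the left of each group, while Cdc25b stays near the floor in most cells.

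The CDK1 switch was present throughout, and its cyclin B was the member that separated the groups most. Cdk1, the mitotic kinase, was detected in all 106 cells, and its group means lay between 11.35 ± 0.56 (EHF Blimp1+ Hoxb1+, n = 4) and 12.01 ± 0.17 (E/MS, n = 7). Ccna2, the cyclin of S phase and G2, ranged from 9.98 ± 1.02 (E/MB Blimp1+ Hoxb1+, n = 4) to 11.49 ± 0.43 (EHF PGCs, n = 8). Ccnb2, a B-type cyclin, averaged 10.17 ± 0.59 in PS epiblast, 10.48 ± 0.60 in E/MS and 10.90 ± 0.48 in LS/0B precursors, and 11.42 ± 0.40, 11.35 ± 0.43 and 11.71 ± 0.18 in E/MB, EHF and E8.25 PGCs. Ccnb2 of the 8 E8.25 PGCs lay between 11.54 and 12.06, and all of them were above the 8 PS cells (9.09 to 10.94). Wee1, the kinase that holds CDK1 off, also had its highest group mean at E8.25 (10.76 ± 0.31, n = 8), with 8.70 ± 1.22 in mesoderm and 8.98 ± 1.30 in E/MB knockout cells. A fainter probe set of Wee1, detected in 59 cells, gave -0.14 for E/MB PGCs against mesoderm, beside 0.92 for the chosen one. For E8.25 PGCs against PS epiblast it gave 1.18, beside 1.76. Ccnf, an F-box cyclin, averaged 10.39 ± 0.77 in EHF PGCs and 8.38 ± 1.62 in EHF Blimp1+ Hoxb1+ cells. Cdc25c, the other CDK1-activating phosphatase on the list, was highest on average in E/MB PGCs (9.13 ± 1.34) and lowest in PS epiblast (7.70 ± 1.13). Cdc25b was found in 4 of the 8 PGCs at E8.25 and in 0 of the 8 Blimp1+ Hoxb1+ cells of both stages.

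Among the mitotic kinases, Plk1, the polo-like kinase that drives entry and spindle building, did not share the order of the score. Its means were 11.20 ± 0.63 in E/MS precursors, 11.03 ± 1.27 in mesoderm, 11.10 ± 0.66 in EHF PGCs, 10.24 ± 1.80 in E/MB PGCs and 9.98 ± 1.87 in E8.25 PGCs. The low means came with single cells: Plk1 in the 8 E8.25 PGCs was lowest at the floor of 6.13, had a median of 10.90 and reached 11.34, and in E/MB PGCs it was 6.13 at the lowest, 10.56 at the median and 12.08 at the highest. Aurka, the Aurora kinase of spindle poles, averaged 10.45 ± 0.76 in EHF PGCs and stood at 9.76, 6.13, 8.19 and 6.13 in EHF Blimp1+ Hoxb1+ cells 1 to 4. Nek2, a centrosome kinase, averaged 10.45 ± 0.46 in E8.25 PGCs and 8.27 ± 1.74 in E/MB Blimp1+ Hoxb1+ cells. Of the chromosomal passenger complex, which corrects kinetochore attachments, Birc5 (survivin) had its highest mean in mesoderm (11.45 ± 0.27, n = 10) and its lowest at E8.25 (10.58 ± 0.70, n = 8). Aurkb, its kinase, was highest in E/MB knockout cells (10.38 ± 0.59) and mesoderm (10.31 ± 0.49). Incenp, its scaffold, was highest in EHF PGCs (11.57 ± 0.46) and lowest in EHF Blimp1+ Hoxb1+ cells (9.51 ± 1.27), and Cdca8 (borealin) varied little, from 10.70 ± 0.35 to 11.31 ± 0.47.

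All checkpoint and kinetochore members had their lowest group mean in mesoderm or in a Blimp1+ Hoxb1+ group, as did most other members. Of all 34, 24 were lowest in a Blimp1+ Hoxb1+ group and 6 in mesoderm, beside 27% and 23.7% of broadly detected genes. Bub1, a checkpoint kinase, averaged 8.96 ± 1.25 in mesoderm (n = 10), where single cells had a lowest value of 6.40, a median of 9.45 and a highest value of 10.50. Its other group means lay between 10.31 ± 0.87 and 11.24 ± 0.50. Ttk, the kinase that recruits checkpoint proteins, was detected in 6 of 10 mesoderm cells and averaged 7.11 ± 0.94 there, with 8.16 ± 0.95 to 9.31 ± 0.65 elsewhere. Bub1b (BubR1) was lowest in the E/MB Blimp1+ Hoxb1+ cells, which stood at 6.75, 10.22, 9.05 and 7.83, and Mad2l1, which blocks Cdc20, stayed between 9.79 ± 0.72 and 10.93 ± 0.46. Cenpe, a kinetochore motor, stood at 7.20, 8.82, 9.43 and 7.02 in E/MB Blimp1+ Hoxb1+ cells 1 to 4 and at 8.92, 7.46, 7.65 and 6.13 in the EHF ones. In the 8 E/MB PGCs Cenpe lay between 9.15 and 10.88, overlapping 1 of the 4 E/MB cells. Cenpf, a kinetochore protein that builds up in G2, averaged 11.25 ± 0.77, 11.30 ± 0.57 and 11.17 ± 0.66 in the successive PGC groups and 8.70 ± 1.55 in EHF Blimp1+ Hoxb1+ cells. Top2a, which untangles sister DNA, was 11.18 ± 0.88 in PS epiblast, 11.16 ± 1.02 in EHF Blimp1+ Hoxb1+ cells, and 12.44 ± 0.24 in EHF PGCs.

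Spindle and cytokinesis genes were among the most variable members. Within groups, the SD over cells was 1.34 for Prc1, 1.32 for Nusap1, 1.29 for Kif11, 1.27 for Aurka, 1.21 for Hmmr and 1.17 for Anln, and 0.38 for Birc5 and Cdk1, 0.40 for Ccnb2, 0.42 for Cdca8 and 0.43 for Ccna2. These are spreads of each gene's own log2 signal and include loss of transcripts during amplification. Kif11 in PS epiblast was detected in 2 of 8 cells, with a highest value of 8.38, and in EHF PGCs in 8 of 8, from 7.61 to 10.32. Nusap1, which bundles spindle microtubules near chromosomes, averaged 11.13 ± 0.38 in EHF PGCs and 7.70 ± 1.60 in mesoderm, where 4 of 10 cells stood at 6.13 and the highest at 10.64. Hmmr, a spindle-pole protein, averaged 9.88 ± 0.98 in EHF PGCs and 7.91 ± 1.41 in mesoderm. Group means of Tpx2 ran from 9.07 ± 1.99 to 10.50 ± 0.23, and those of Kif2c, a microtubule-depolymerising kinesin, from 9.64 ± 0.85 to 10.72 ± 0.98. Anln (anillin), a scaffold of the cleavage furrow, averaged 8.28 ± 1.48 in PS epiblast and 10.87 ± 0.54 at E8.25. Prc1, which bundles midzone microtubules, was at the floor in 3 of 8 PS cells and in 0 of 8 EHF PGCs. Kif23, a motor of the central spindle, stood at 10.45 in EHF Blimp1+ Hoxb1+ cell 1 and at most at 6.51 in the other 3. Kif20a, another midzone motor, lay between 9.59 ± 2.08 and 10.70 ± 0.38, and Ect2, an exchange factor needed for furrowing, between 8.14 ± 1.46 (mesoderm) and 9.87 ± 0.51 (EHF Blimp1+ Hoxb1+).

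Genes of anaphase and mitotic exit were detected in all cells. Ube2c, the ubiquitin-conjugating enzyme of the anaphase-promoting complex, averaged 12.49 ± 0.52 in EHF PGCs and 10.74 ± 1.15 in EHF Blimp1+ Hoxb1+ cells, which stood at 12.30, 9.94, 10.89 and 9.82. Cell 1 of those 4 was inside the range of the EHF PGCs (11.34 to 12.89) and the other 3 were below it. Cdc20, the activator of that complex, kept means between 11.24 ± 0.84 and 12.03 ± 0.40. Espl1 (separase), which cuts cohesin, averaged 11.01 ± 0.78 in EHF PGCs and 8.91 ± 1.30 in E/MB Blimp1+ Hoxb1+ cells. Counting all 34 members, 25 had their highest group mean in a PGC group (14 at EHF, 9 at E8.25 and 2 at E/MB), or 73.5%, beside 34.8% of broadly detected genes. The lowest group mean was in a Blimp1+ Hoxb1+ group for 24 members (70.6% beside 27% of broadly detected genes), in mesoderm for 6 (17.6% beside 23.7%) and in PS epiblast for 3 (8.82% beside 8%). The Blimp1+ Hoxb1+ groups have 4 cells each, so their means vary most. Members also vary together from cell to cell, with a mean pair correlation of 0.37 beside 0.015 for broadly detected genes. The counts are therefore not 34 separate results.

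**Figure D3:**
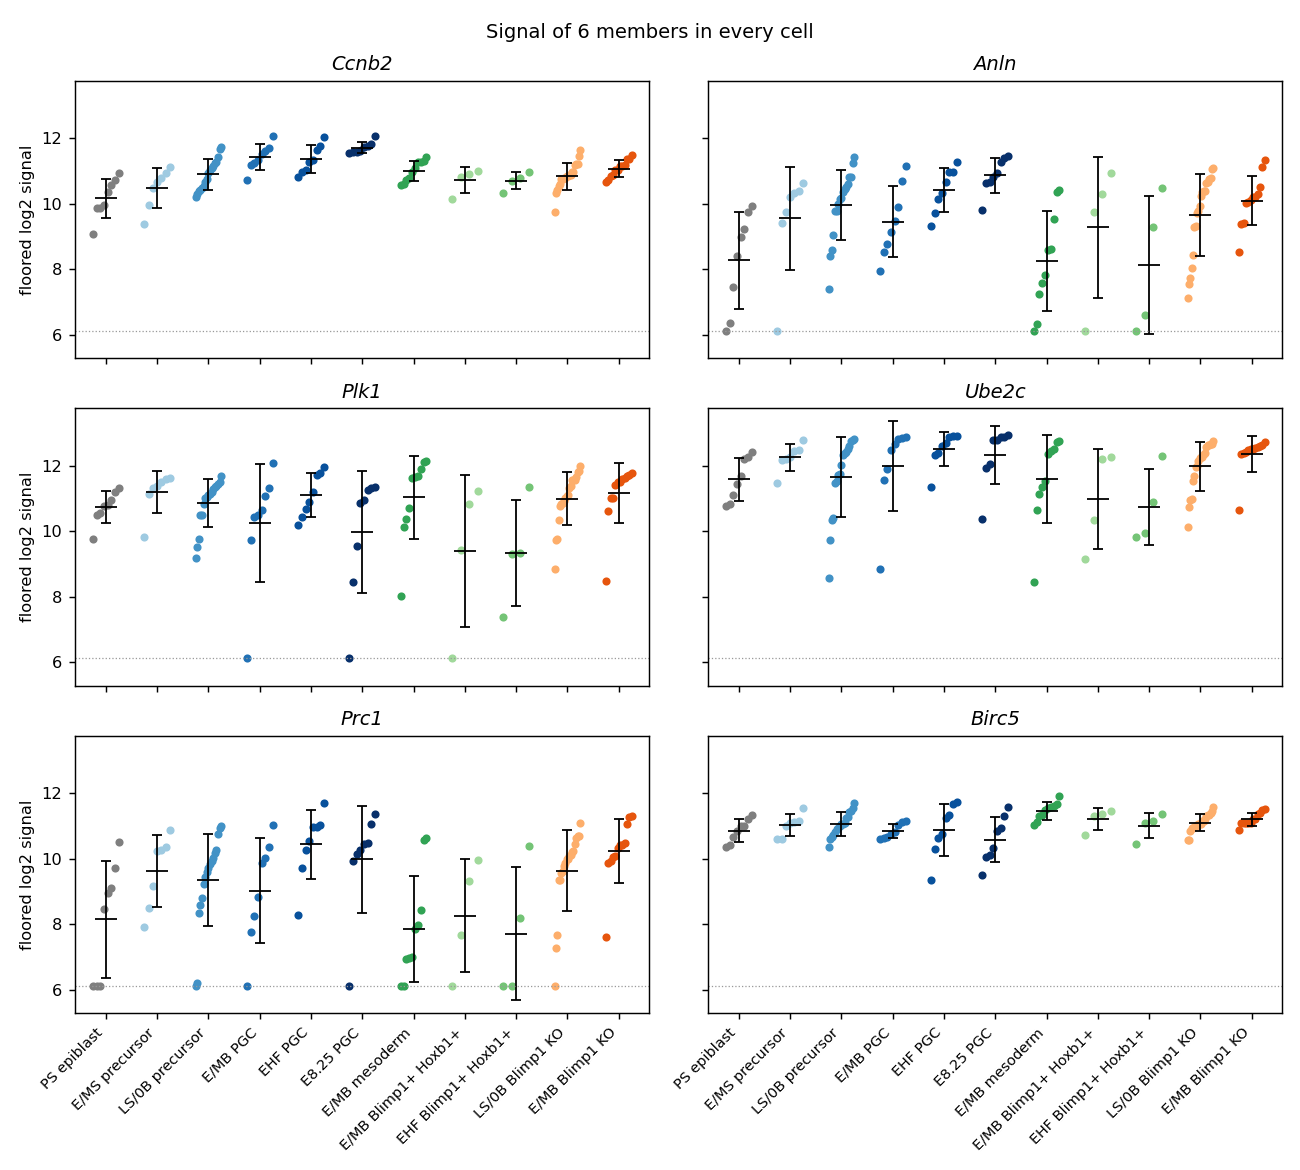
Floored log2 signal of 6 members in every cell of the 11 groups; points are cells ordered by value, bars are the mean and SD over cells, and the dotted line is the floor of 6.13. Ccnb2 of all E8.25 PGCs lies above that of all PS cells, Anln and Prc1 reach the floor in 1 or more cells of PS epiblast, mesoderm and both Blimp1+ Hoxb1+ groups, Anln also in E/MS precursors, and Prc1 also in LS/0B precursors, E/MB PGCs, E8.25 PGCs and LS/0B knockout cells, and Birc5 changes least.

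The first comparison asked how PGC precursors at E/MS differ from the pre-streak epiblast. The score was higher by 0.48 at E/MS, below the 0.5 units set for a direction, and 26 of 34 members had higher means (76.5%, beside 46.2% of broadly detected genes). At least 1 log2 unit higher were 8 of 34 members and lower were 0, against 2.67% and 2.94% of all genes and 5.2% and 5.23% of broadly detected genes. They were Kif11 (1.73), Hmmr (1.52), Prc1 (1.47), Anln (1.27), Cdc25c (1.09), Cenpf (1.08), Nusap1 (1.07) and Top2a (1.06). The median member differed by 0.42 and the median broadly detected gene by -0.04. All 8 PS cells and 0 of 7 E/MS cells had Xist, so stage and sex cannot be told apart here. E/MS cell 6 had the lowest score of its group (9.43) and the fewest detected genes (5848), and without it the difference was 0.60. Without E/MS cell 1, E/MS cell 7, PS cell 6 or PS cell 7 it was 0.51, 0.50, 0.54 and 0.54, all past the size given a direction. Scaling to the spiked lys control gave 0.86 with 14 members higher, while the median broadly detected gene moved from -0.04 to 0.34, and averaging all probe sets of a gene gave 0.32 with 2 higher.

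Between E/MS and LS/0B precursors the score differed by -0.19 and 0 of 34 members were past 1 log2 unit in either direction, beside 1.48% higher and 1.47% lower among all genes and 3.13% and 2.79% among broadly detected genes. Within LS/0B the 8 cells with Xist had a score of 10.36 ± 0.31, from 9.92 to 10.73, and the 9 without it 9.62 ± 0.60, from 8.61 to 10.20. Cells with Xist also had more detected genes (7584.75 against 6793.11 on average). They were cells 14 and 18 to 24, and those without it were cells 1 to 8 and 16. Sex can therefore hardly be told apart from the run of replicate numbers, and the labels do not say what that run stands for. Taking the LS/0B cells without Xist alone, which matches the E/MS cells in Xist, the difference was -0.53 and 6 members were lower. Of the LS/0B cells, the lowest were cell 4 (8.61), without which the difference was -0.10, and cell 8 (8.95), without which it was -0.12. Without E/MS cell 6 it was -0.31 with 1 member lower, and scaling to lys gave -0.54 while the median broadly detected gene moved from 0.01 to -0.33.

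From LS/0B precursors to E/MB PGCs the score differed by 0.21, and only Cenpf (1.17) was higher by 1 log2 unit, 1 of 34 against 2.96% of all genes and 5.05% of broadly detected genes, with 0 lower against 2.66% and 5.77%. Cenpf was 10.08 ± 1.66 in precursors and 11.25 ± 0.77 in PGCs. Against the 9 LS/0B cells without Xist the difference was 0.56 with 5 members higher, and no E/MB PGC had Xist. Those 9 are cells 1 to 8 and 16, so sex and the run of replicate numbers can hardly be told apart here either. E/MB PGC 8 had the lowest score of its group, 8.76, and without it the difference was 0.41 with 3 members higher; without E/MB PGC 1 or 4 it was 0.12 and 0.14, with 1 higher in both cases. Without LS/0B cell 2 or 4 it was 0.16 and 0.13, with 0 higher in both cases. When each array was scaled to lys, the difference was -0.20, while the median broadly detected gene moved from 0.01 to -0.41.

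From E/MB to EHF the PGCs differed by 0.32 in score, and 27 of 34 members had higher means (79.4%, beside 49.1% of broadly detected genes). Prc1 was the member past 1 log2 unit (1.40, from 9.03 ± 1.61 to 10.43 ± 1.04), with Kif11 (0.99) and Anln (0.97) just under. That is 1 of 34 against 1.92% of all genes and 3.45% of broadly detected genes, and 0 were lower against 2.25% and 4.26%. Without E/MB PGC 8 the difference was 0.12 with 0 members higher, and without E/MB PGC 1 it was 0.42 with 4 higher. Against the 3 EHF cells without Xist alone, it was 0.60 with 9 members higher. Leaving out any other single cell gave between 1 and 3 higher. Scaling to lys gave 0.68, past the size given a direction, while the median broadly detected gene moved from -0.01 to 0.36.

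From EHF to E8.25 the score differed by -0.11. Plk1 (-1.12) was lower by 1 log2 unit, 1 of 34 against 1.53% of all genes and 2.87% of broadly detected genes, and 0 were higher against 1.71% and 3.31%. E8.25 PGC 2 stood at the floor for Plk1, Tpx2, Nusap1, Hmmr, Prc1, Ccnf, Cdc25b, Aurkb, Cenpe and Ttk. Without that cell the score difference turned to 0.10 with 1 member higher and 0 lower, without E8.25 PGC 6 it was -0.01, and without EHF PGC 1 it was -0.04. Leaving out EHF PGC 7 gave -0.23 with 2 members lower, and leaving out E8.25 PGC 3 or 5 gave -0.18 and -0.20 with 3 lower each. With the 3 EHF cells without Xist alone it was -0.39 with 6 members lower.

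Over the whole span, E8.25 PGCs had a score 0.71 higher than PS epiblast (10.39 ± 0.73 against 9.67 ± 0.30, n = 8 each), and ranges overlapped. Of 34 members, 28 had higher means (82.4%, beside 48.7% of broadly detected genes), 11 were higher by 1 log2 unit and 0 lower. Of all genes 4.9% were higher and 5.12% lower by that much, and of broadly detected genes 8.88% and 9.97%. The 11 were Anln (2.59), Kif11 (2.34), Prc1 (1.83), Wee1 (1.76), Ccnb2 (1.54), Hmmr (1.48), Cenpf (1.36), Nek2 (1.29), Top2a (1.12), Nusap1 (1.11) and Ccnf (1.06). Another probe set of Prc1 gave 0.95 and that of Ccnf 0.98, while those compared for Kif11, Wee1, Hmmr and Nek2 stayed past 1. Anln was 6.13 at the lowest, 8.69 at the median and 9.94 at the highest in the 8 PS cells and 9.81, 10.87 and 11.45 in the 8 E8.25 PGCs, so a single PS cell reached the lowest PGC. Ccnb2 was the member whose groups did not overlap, 1 of 34, beside 1.28% of all genes and 2.61% of broadly detected genes. Wee1 was 6.13, 9.54 and 10.49 in PS cells and 10.37, 10.80 and 11.17 at E8.25, with the 2 highest PS cells inside the PGC range. The median member differed by 0.61 and the median broadly detected gene by -0.02. Members with lower means were Plk1 (-0.75), Cdc20 (-0.30), Espl1 (-0.30), Cdk1 (-0.28), Birc5 (-0.27) and Tpx2 (-0.07). Without E8.25 PGC 2 the score difference was 0.92 with 14 members higher. With all probe sets of a gene averaged it was 0.45, under the size given a direction, with 6 members higher. Xist was detected in all PS cells and in 0 E8.25 PGCs, so sex and stage cannot be told apart in this pair either.

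Against posterior mesoderm of the same stage, E/MB PGCs had a higher score, by 0.59 (10.18 ± 0.66, n = 8, against 9.59 ± 0.66, n = 10), with overlapping ranges. Mesoderm cells also had fewer detected genes, 6718.8 on average against 7196.9 in the PGCs, and 4422.5 against 5598.5 at the stricter limit of the 99th percentile. Of 34 members, 9 were higher by 1 log2 unit and 0 lower, while 8.43% of all genes and 17% of broadly detected genes were higher and 3.62% and 7.3% lower. The 9 were Nusap1 (2.83), Bub1 (1.81), Cenpf (1.53), Ttk (1.40), Hmmr (1.29), Anln (1.19), Prc1 (1.17), Ect2 (1.15) and Cenpe (1.07). Nusap1 was 6.13 at the lowest, 10.92 at the median and 11.98 at the highest in the PGCs, and 6 of the 8 PGCs lay above 10.64, the highest mesoderm value. Plk1 (-0.80), Aurkb (-0.76) and Birc5 (-0.61) went the other way and were lower in PGCs. The difference depended on how arrays were scaled. It was 0.38 when arrays were centred on broadly detected genes, 0.01 when scaled to lys, and 0.31 when probe sets of a gene were averaged, all under the size given a direction. The median broadly detected gene stood at 0.16, -0.05 and -0.39 without scaling, with centring and with lys. Other probe sets of Hmmr gave 0.35 and -0.36, and that of Prc1 0.15, beside their chosen ones. Without E/MB PGC 1, mesoderm cell 6 or mesoderm cell 7 the difference also ended just under 0.5 (0.49, 0.49 and 0.50), and without mesoderm cell 7 or E/MB PGC 4 6 members were higher and 1 lower. The hybridisation controls of the mesoderm arrays differ from those of the others, and the part of these controls and of the number of detected genes in this result was not tested.

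Against E/MB Blimp1+ Hoxb1+ cells, E/MB PGCs had a score higher by 0.67 (10.18 ± 0.66, n = 8, against 9.51 ± 1.11, n = 4), with overlapping ranges. Of 34 members, 29 had higher means (85.3%, beside 53.1% of broadly detected genes), 9 were higher by 1 log2 unit and 0 lower, against 5.21% and 5.52% of all genes and 9.37% and 10.6% of broadly detected genes. They were Cenpe (2.05), Cenpf (1.99), Bub1b (1.83), Nek2 (1.48), Aurka (1.40), Espl1 (1.34), Ccnf (1.31), Kif23 (1.26) and Ube2c (1.01). Cenpf stood at 6.13, 10.31, 11.06 and 9.53 in the 4 Blimp1+ Hoxb1+ cells and between 9.91 and 12.25 in the PGCs, so cells 2 and 3 lay inside the PGC range and cells 1 and 4 below it. The 4 cells fell apart in the same way for most members. Blimp1+ Hoxb1+ cell 1 had a score of 8.11, and without it the difference was 0.20, under the size given a direction, with 4 members higher and 1 lower. Without cell 2 it was 0.91 with 16 higher, and without cell 4 it was 0.55 with 7 higher and 1 lower. Without cell 3, the 1 cell of the 4 with Xist, it was 1.01 with 17 higher. Since 0 E/MB PGCs had Xist, that last difference is between cells without Xist only. Without E/MB PGC 8 it was 0.87 with 15 higher, and with probe sets averaged it was 0.40, also under that size, with 4 higher. Kif11 (-0.91) and Ttk (-0.59) were lower in the PGCs. The comparisons with mesoderm, with Blimp1+ Hoxb1+ cells and with the stages before and after share the same 8 E/MB PGCs.

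**Figure D4:**
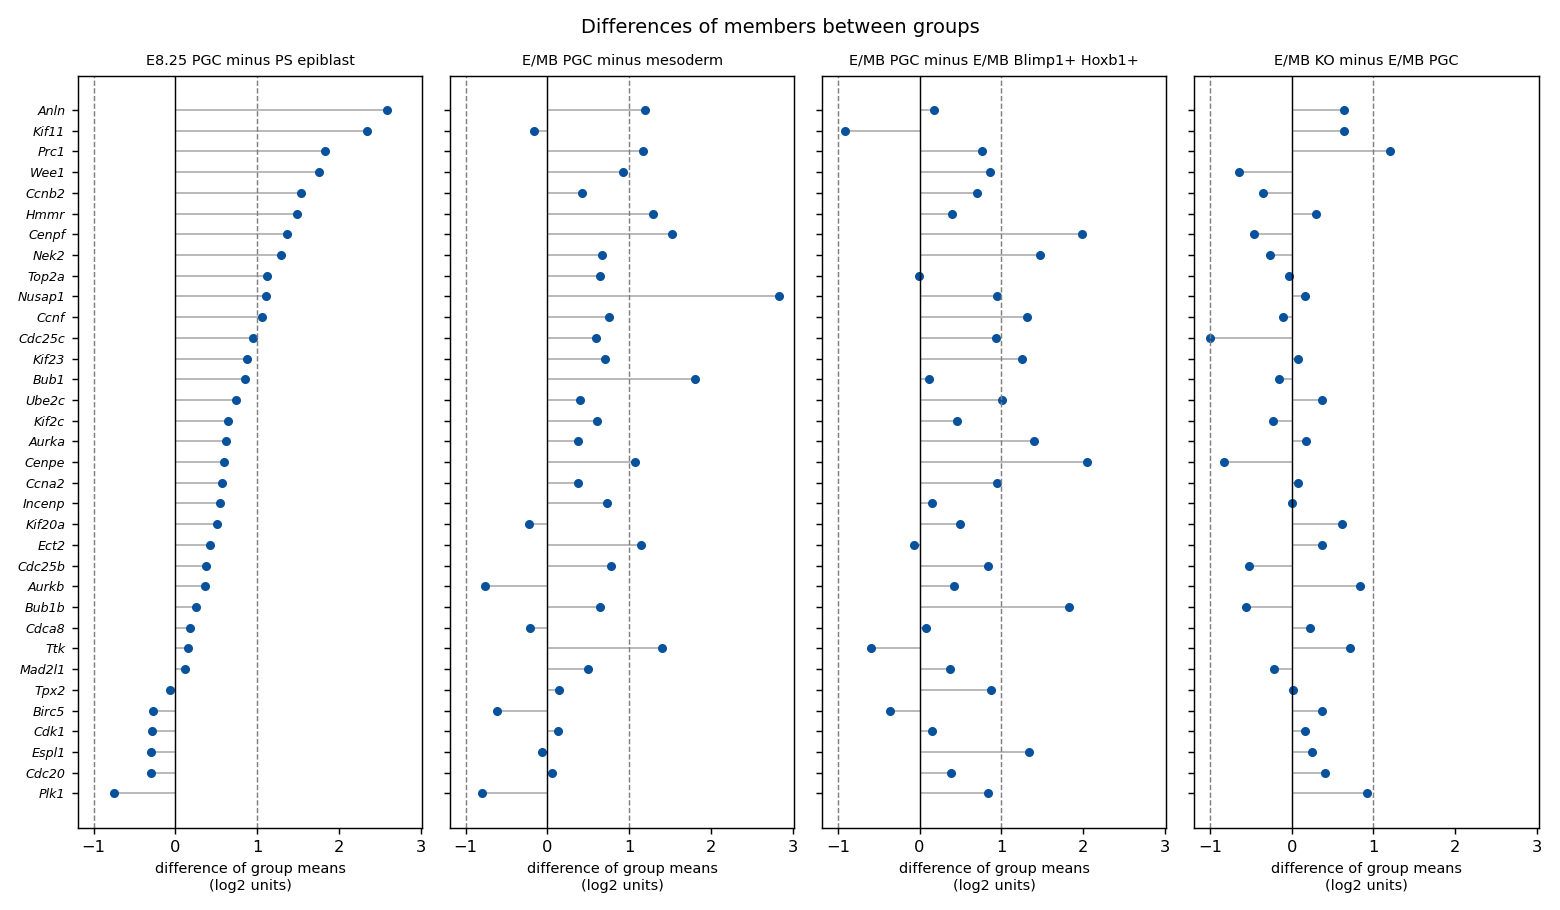
Difference of group means (log2 units) of each member in 4 comparisons, with members ordered by the difference between E8.25 PGCs and PS epiblast; dashed lines mark 1 log2 unit in each direction. Of 34 members, 11, 9, 9 and 1 lie at or beyond 1 from left to right; the last 3 panels share the 8 E/MB PGCs.

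Knockout cells were compared with wild-type precursors at LS/0B and with PGCs at E/MB, and both differences were under the size given a direction. At LS/0B the knockout score was 10.10 ± 0.55 (n = 20) and that of wild-type precursors 9.96 ± 0.60 (n = 17), a difference of 0.14, with 0 of 34 members past 1 log2 unit, beside 1.06% of all genes higher and 0.39% lower, and 2.18% and 0.745% of broadly detected genes. The largest member difference was that of Kif11 (0.95, 8.73 ± 1.22 against 7.78 ± 1.55), and another probe set of Kif11 gave 0.27. No knockout cell had Xist, and against the 9 wild-type cells without Xist the difference was 0.49 with 4 members higher. As above, those 9 nearly coincide with the first run of replicate numbers. The score without single cells ran from 0.05, without wild-type cell 4, to 0.21, without knockout cell 6.

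At E/MB the knockout cells had a score of 10.27 ± 0.46 (n = 12) and PGCs 10.18 ± 0.66 (n = 8), a difference of 0.09, while mesoderm and Blimp1+ Hoxb1+ cells of that stage had 9.59 and 9.51. The knockout cells stood at 7.93 for the 6 PGC markers and 8.71 for the 7 mesoderm markers, against 11.21 and 6.46 in the PGCs. Prc1 was higher (1.21, 10.23 ± 0.96 against 9.03 ± 1.61), 1 of 34 against 4% of all genes and 8.06% of broadly detected genes, and 0 were lower against 3.61% and 6.23%. Cdc25c stood just short of the threshold at -0.998 (8.13 ± 1.03 against 9.13 ± 1.34), and Cenpe at -0.83. Plk1 was 0.92 higher and Aurkb 0.83 higher. Leaving out other single cells gave up to 2 higher and up to 2 lower. Without PGC 8 the score difference was -0.11, so the sign turned, and with that cell gone 0 members were higher and 1 lower. Scaling to the lys control gave 0.74 with 11 members higher, while the median broadly detected gene moved to 0.64.

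Within groups, the 34 genes varied together from cell to cell. Each value is taken as the deviation of a cell from its group mean, over 106 cells, and cells share amplification and array with all their genes. The mean correlation over 561 pairs of members was 0.37, with 554 pairs above 0 and 142 above 0.5, while it was 0.015 over pairs of broadly detected genes. The closest pairs were Plk1 and Ube2c (r = 0.80), Aurka and Ube2c (0.76) and Plk1 and Tpx2 (0.76). Of each member with the mean of the other 33, Plk1 had r = 0.83, Ube2c 0.82, Tpx2 0.79 and Hmmr and Prc1 0.77 each, and 22 of 34 members exceeded 0.5. The 2 lowest were Wee1 (0.14) and Cdc25b (0.26), and Ccnb2 stood at 0.44. The score also followed the number of detected genes of a cell (r = 0.51), and with arrays centred on broadly detected genes the mean correlation of pairs was 0.32.

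Cells low in G2 and mitosis genes were often high in genes of G1, S phase and DNA replication. The score correlated at -0.55 with the mean of 37 genes of G1 to S, over 106 deviations from group means. The G1 to S score did not move with detected genes (r = -0.05). All 34 members had negative values with that score, from -0.62 for Ube2c to near 0 for Wee1. Of the 37 G1 to S genes, 29 had a negative correlation with the G2 and mitosis score, with a median of -0.30, beside a median of 0.06 over 9119 other genes. Within groups of 7 cells or more the correlation of the scores was -0.71 in PS epiblast (n = 8), -0.05 in E/MS (n = 7), -0.60 in LS/0B (n = 17), -0.55 in E/MB PGCs (n = 8), 0.09 in EHF PGCs (n = 8), -0.93 at E8.25 (n = 8), -0.32 in mesoderm (n = 10), -0.61 in LS/0B knockout (n = 20) and -0.32 in E/MB knockout cells (n = 12). Of the cells with a score below 9, E/MB Blimp1+ Hoxb1+ cell 1 (8.11), EHF Blimp1+ Hoxb1+ cell 2 (8.67), E/MB PGC 8 (8.76), mesoderm cell 7 (8.77) and E8.25 PGC 2 (8.93) had the highest G1 to S score of their groups, at 10.26, 10.26, 10.21, 10.34 and 10.41. LS/0B knockout cell 6 (8.81), EHF Blimp1+ Hoxb1+ cell 4 (8.88), LS/0B precursor 8 (8.95) and mesoderm cell 8 (8.98) stood at 10.32, 10.15, 10.27 and 10.07. LS/0B precursor 4 (8.61), with few detected genes, had 9.98, and mesoderm cell 6 (8.67) went the other way with 9.43, below the mesoderm median of 9.76. In E8.25 PGC 2 Ccnb2 was at 11.76, inside the range of the other E8.25 PGCs.

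**Figure D5:**
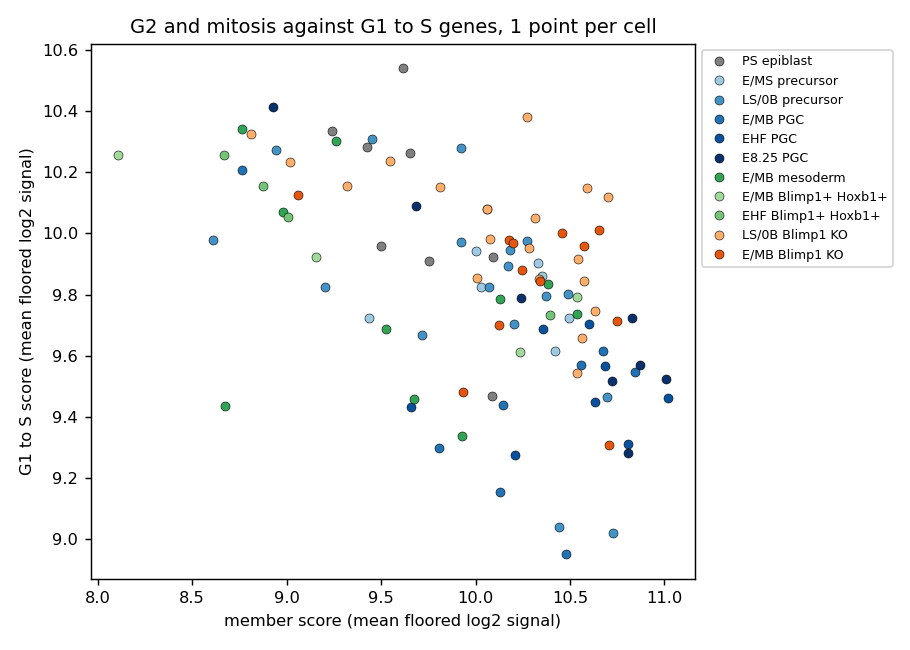
Each point is 1 of 106 cells, coloured by group, with the G2 and mitosis score (member score) on the x axis and the G1 to S score on the y axis (both mean floored log2 signal). Cells below a score of 9 mostly lie above 9.9 on the y axis, and E/MB PGCs reach down to 8.95.

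The other genes of the pathway were read from lists that are separate from the members. Of 57 other G2 and mitosis genes measured, 50 of the 56 that varied had a positive correlation with the score (median 0.42, 21 above 0.5). Between E8.25 PGCs and PS epiblast, 9 of the 57 were higher by 1 log2 unit, among them the spindle gene Ckap2 (2.21) and the kinetochore gene Zwint (1.79), and 1, the lamin gene Lmnb1, was lower, with a median of 0.34, beside 8.88% and 9.97% of broadly detected genes. Against mesoderm 13 were higher in E/MB PGCs and 0 lower, led by the proliferation marker Mki67 (1.96) and the spindle-pole gene Aspm (1.89), beside 17% and 7.3% of broadly detected genes. Their median of 0.37 depended on scaling, a check chosen after seeing the data: centred, it was 0.18 with 9 higher and 1 lower, and scaled to lys -0.09 with 5 higher and 5 lower. Against E/MB Blimp1+ Hoxb1+ cells 4 of the 57 were higher and 4 lower, beside 9.37% and 10.6% of broadly detected genes. Another list held 13 measured genes, namely parts of the anaphase-promoting complex and its activator Fzr1. Between E8.25 and PS, 1 was higher and 0 lower, beside 8.88% and 9.97% of broadly detected genes. From E/MB to EHF, 2 of the 13 were higher, beside 3.45% of broadly detected genes. Among them was Fzr1 (1.32), which was lower again by 1.38 at E8.25. In that step 1 of the 13 was lower and 0 higher, beside 2.87% and 3.31% of broadly detected genes. Of the 37 G1 to S genes, 8 were lower and 2 higher between E8.25 and PS, beside 9.97% and 8.88% of broadly detected genes, with a median of -0.22. The lowest were Uhrf1 (-2.85), Ccnd1 (-2.77), Ccne1 (-2.66) and Gins2 (-2.54). Ccnd2 (2.33) and Ccnd3 were the ones higher. In E/MB knockout cells against E/MB PGCs, 7 of the 37 were higher and 0 lower, beside 8.06% and 6.23% of broadly detected genes. Uhrf1 stood at 3.28 and Gins2 at 2.06, while 1 of the 34 members was higher. Of 21 inhibitors and checkpoint genes, Cdkn1c (2.75) and Cdkn1a (1.49), which restrain cyclin-dependent kinases, were higher in LS/0B than in E/MS precursors, and 0 were lower. Of broadly detected genes 3.13% were higher and 2.79% lower. From E/MB to EHF PGCs, 1 of the 21 was higher, Cdkn1a (by 1.90), and 2 were lower, Rb1 and Chek1. Of broadly detected genes 3.45% were higher and 4.26% lower. From EHF to E8.25, 1 was higher, Btg1, and 1 lower, Cdkn1a (by 1.34), beside 3.31% and 2.87%. Cdkn1a was detected in only 3, 6 and 4 of the 8 PGCs at E/MB, EHF and E8.25, so many of its values lie near the floor.

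The genes most like the score across cells, over deviations from group means in 106 cells, were Cks2 (r = 0.78), Rasd2 (0.78), Hrk (0.77), Kpna2 (0.77), Jpt1 (0.74), Mki67 (0.74), Arhgap19 (0.74), Ndst4 (0.72), Cdca3 (0.72) and Bub3 (0.70), taken from 9119 genes outside the members that were detected in at least 25% of cells. Cks2, a small CDK-binding subunit, Mki67, Cdca3 and Bub3, a checkpoint protein, stood on the list of other G2 and mitosis genes. Rasd2 was detected in 58 of 106 cells. The most opposite were Ung (-0.56), which removes uracil from DNA, E2f1 (-0.50), which switches on S-phase genes, Slbp (-0.49), which binds histone mRNA, and Gins2 (-0.49), a part of the replicative helicase.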

How the data were processed

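Signals of 106 single cells on Affymetrix arrays (45101 probe sets) were analysed as deposited by the authors. The deposited values are intensities on a linear scale, made with MAS5 per the submitters' processing notes; its version and scaling target: not given in the sources used here. Intensities were taken as log2, and no scaling between arrays was added. For each gene the single-symbol probe set with the highest mean was used, 34945 probe sets giving 18193 genes. Of the chosen member probe sets, 5 end in _x_at (Cdc25c, Aurkb, Incenp, Kif2c, Cdc20) and 4 in _s_at (Nek2, Cdca8, Bub1b, Prc1) and can bind other transcripts. The floor is the median over cells of the 90th percentile of 126 background probe sets. The detection limit of a cell was a signal of 82.8 to 166. Lost transcripts in single-cell amplification and 15.3% of values at the lowest value, 1, lower the precision of faint genes.

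Each sample is 1 cell and no embryo is named, so groups were compared by means with no p-value. No count of reads lies behind an array signal; precision is limited by how many arrays there are. Members, lists and promoters were chosen with earlier results of these data known. The genes named are all members, genes of the other pathway and marker lists, the 10 genes that correlate best with the score and the 4 most opposite to it. Promoters shown follow the largest SD within groups; Prc1 was passed over because its motif crosses the start, a choice made after its values were seen. The alternatives were no floor, a higher floor, centring, lys scaling, averaged probe sets, a threshold of 1.5, cells without Xist and each cell left out. Python 3.11.15, NumPy 2.4.6, pandas 2.3.3, SciPy 1.17.1 and matplotlib 3.10.9 were used, and the steps were tested on simulated data. Ccnb1 was not analysed here.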

Additional observations from a re-analysis of the deposited data

Results flagged for a closer look

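In groups of 4 to 10 cells, 286 sets of values (each of the 34 members, the score and the number of detected members, by group) were searched for a cell far from all others, 2 more sets having all cells at the floor, and 49 were found, 43 low and 6 high. Chance gives about 1 in 20 for independent values with a bell-shaped spread. These values are floored and the members vary together, so the 49 cannot be set against that rate. Low ones gathered in few cells: E/MB PGC 8 had 11, E8.25 PGC 2 had 9, E/MS precursor 6 had 8 and EHF PGC 7 had 3.

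E/MB PGC 8 stood at the floor of 6.13 for Cdc25c, Plk1, Aurka, Nusap1 and Hmmr, at 8.07 for Bub1, 7.60 for Tpx2, 8.16 for Kif20a, 9.02 for Cdc20 and 8.83 for Ube2c, and had 27 members detected. E8.25 PGC 2 stood at 6.13 for Ccnf, Aurkb, Tpx2, Nusap1, Hmmr and Prc1, at 10.22 for Cdca8 and 8.40 for Kif2c, and had 24 members detected. E/MS precursor 6 stood at 6.13 for Ccnf, Aurka, Nek2, Kif11 and Anln, at 9.82 for Plk1 and 9.20 for Cdc20, and had 27 members detected. These 3 cells had 6665, 6857 and 5848 detected genes.

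EHF PGC 7 was low for Kif20a (9.17), Kif23 (6.13) and Ube2c (11.34). E/MB Blimp1+ Hoxb1+ cell 1 was at 6.13 for Cdc25c and had 20 members detected. Other low values were Wee1 and Aurkb in E/MB PGC 3 (6.13 each), Espl1 in E/MB PGC 6 (7.85), Ube2c in E8.25 PGC 6 (10.39), Tpx2 in EHF Blimp1+ Hoxb1+ cell 2 (7.78), Cenpe in PS cell 5 (6.13) and Kif23 in PS cell 1 (6.75). In mesoderm, Ccnf was at 6.13 in cell 9, and Plk1 at 8.03 and Ube2c at 8.44 in cell 7. The high values were Ccna2 in E8.25 PGC 7 (11.97), Cdc25b in mesoderm cell 4 (6.77), Mad2l1 in PS cell 7 (11.34), Kif11 and Kif23 in EHF Blimp1+ Hoxb1+ cell 1 (10.37 and 10.45), and the number of members detected in PS cell 7 (33).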

How the results depend on the processing

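No paired analysis was possible because the results come from no test and each sample is 1 cell. Of 55 values of the score difference under another setting, 53 moved by less than the SD over cells. That SD is larger than most of the differences themselves, so the count does not show that a difference held. The 53 include the fall from 0.59 to 0.01 against mesoderm when scaled to lys. Of the counts, 27 of 65 for higher members and 13 of 65 for lower members moved by more than 1.5 times. In what follows the counts are of members past 1 log2 unit. Scaled to lys, the score difference was 0.86 for E/MS against PS and 0.74 for E/MB knockout against PGCs; members higher were 14 (E/MS against PS), 0 (E/MB PGCs against LS/0B), 6 (EHF against E/MB), 3 (against mesoderm) and 11 (E/MB knockout), and lower 4 (LS/0B against E/MS), 1 (E/MB PGCs against LS/0B), 2 (E8.25 against EHF) and 3 (against mesoderm). Centred, 3 were higher in EHF against E/MB, 5 higher and 1 lower against mesoderm, and 2 lower in E8.25 against EHF. With probe sets averaged, 2 (E/MS against PS), 0 (E/MB PGCs against LS/0B), 6 (E8.25 against PS), 3 (mesoderm) and 4 (Blimp1+ Hoxb1+) were higher. With no floor, 4 (E/MB PGCs against LS/0B), 4 (EHF against E/MB), 1 (E8.25 against EHF), 1 (LS/0B knockout) and 4 (E/MB knockout) were higher, and 3 (LS/0B against E/MS), 4 (E8.25 against EHF), 1 (mesoderm) and 2 (Blimp1+ Hoxb1+) lower. At a threshold of 1.5, 2, 0, 0, 5, 3, 3 and 0 were higher in E/MS against PS, E/MB PGCs against LS/0B, EHF against E/MB, E8.25 against PS, against mesoderm, against Blimp1+ Hoxb1+ cells and in E/MB knockout, and 0 lower in E8.25 against EHF. With cells without Xist, a choice made for these counts after seeing the data, 6 were lower in LS/0B against E/MS and 5 and 4 higher in E/MB PGCs and LS/0B knockout against LS/0B; for EHF, 9 were higher against E/MB and 6 lower in E8.25. The cause was not tested.

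Leaving out 1 cell at a time, the counts also chosen after seeing the data, gave score differences of 0.42 to 0.60 with 6 to 9 members higher for E/MS against PS, -0.31 to -0.10 with 0 to 1 lower for LS/0B against E/MS, 0.12 to 0.41 with 0 to 3 higher for E/MB PGCs against LS/0B, and 0.12 to 0.44 with 0 to 4 higher for EHF against E/MB. E8.25 against EHF gave -0.23 to 0.10 with 0 to 1 higher and 0 to 3 lower, and E8.25 against PS 0.63 to 0.92 with 9 to 14 higher. E/MB PGCs gave 0.49 to 0.79 with 6 to 11 higher and 0 to 1 lower against mesoderm, and 0.20 to 1.01 with 4 to 17 higher and 0 to 1 lower against Blimp1+ Hoxb1+ cells. Knockout cells gave 0.05 to 0.21 with 0 to 1 higher at LS/0B and -0.11 to 0.20 with 0 to 2 higher and 0 to 2 lower at E/MB. The score with G1 to S genes correlated at -0.72 when centred and -0.59 without mesoderm. Of 20 comparisons with another probe set of a member past 1 unit, 19 kept the sign, 14 were also past 1 unit and 3 were under 0.5. Of the 43 other probe sets of members, 25 were detected in under 50% of cells and were left out of these comparisons.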

Other observations

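Some of the genes most like the G2 and mitosis score stand on no list of cell cycle genes used here. Hrk, a BH3-only gene of the apoptosis pathway, averaged 8.89 ± 0.46 (SD, n = 8 cells) in EHF PGCs and 7.15 ± 0.93 (n = 4) in EHF Blimp1+ Hoxb1+ cells, and was detected in 96 of 106 cells. Ndst4, an enzyme that modifies heparan sulphate, averaged 10.44 ± 0.38 in EHF PGCs (n = 8), 9.16 ± 1.19 in PS epiblast (n = 8) and 8.71 ± 0.91 in EHF Blimp1+ Hoxb1+ cells (n = 4). Rasd2, a Ras-like GTPase, averaged 7.65 ± 0.64 in EHF PGCs, where 7 of 8 cells had it, and 6.45 ± 0.45 in mesoderm, where 1 of 10 did. Kpna2, an importin, had r = 0.77 with the score over 106 deviations from group means. The same 10 genes led when arrays were centred and when mesoderm was left out.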
